A study of Mus musculus with 6 samples.

Results

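The genes of thymic stromal lymphopoietin (Tslp), IL-33 (Il33), the type 2 cytokines IL-4, IL-5 and IL-13 (Il4, Il5, Il13) and receptor chains for these cytokines (Crlf2, Il1rl1, Il4ra, Il13ra1, Il13ra2) were followed in mouse ear skin. They were chosen by gene name from the probes of a one-colour Agilent expression array. All 10 were on the array, read by 13 probes, and all 10 were among the 23676 genes tested. Total RNA came from the ear skin of 3 mice labelled NC16A sufficient (WT 1, WT 2 and WT 3) and 3 labelled NC16A deficient (KO 1, KO 2 and KO 7), with 1 array per mouse. NC16A is a segment of collagen XVII (BP180), a protein that anchors basal keratinocytes to the basement membrane. The labels name no treatment and state that age and sex match. Strain, the age itself, the sex and how the deficient mice were made are not stated in the sources used here. The p-values rest on the spread between these separate mice, and those of the limma fit also draw on the spread of all genes. The arrays of KO 2 and KO 7 were on a second slide, apart from all WT arrays. Both the spread within KO and the KO minus WT difference thus also hold any difference between slides. The comparison bears on skin inflammation in mice with altered BP180, which the title of the study names. Values are the log2 processed signal minus the 75th percentile of the same array, differences are KO minus WT with the standard error (SE) of the limma fit, and a gene passed at a Benjamini-Hochberg adjusted p under 0.05.

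TSLP and IL-33 are epithelial alarm cytokines. Keratinocytes and other barrier cells make them, IL-33 is stored in the nucleus and freed on damage, and both act on innate lymphoid cells, mast cells, dendritic cells and T helper cells. TSLP signals through CRLF2 paired with the IL-7 receptor chain, and IL-33 through ST2, the product of Il1rl1, paired with the IL-1 receptor accessory protein. The responding cells release IL-4, IL-5 and IL-13, of which IL-4 and IL-13 share the IL-4 receptor alpha chain and signal through STAT6, and IL-5 supports eosinophils. In skin this axis is known for its part in atopic dermatitis and itch.

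None of the 10 genes passed. Of the 23676 genes tested, 1.98% were called higher and 0.389% lower in KO, or 2.37% in either direction, so that 0 of 10 is close to that background. The smallest adjusted p was 0.12, for Il13ra2, and the largest difference was 0.84, for Il1rl1. At an unadjusted p under 0.05 there were 2 of the 10, Il13ra2 and Il1rl1, both higher in KO, against 26.6% of all genes in either direction and 16.9% higher. The same 2 had KO values wholly above the WT values, against 35.4% of genes whose groups did not overlap in either direction and 21.4% with KO wholly above WT. The median difference of the 10 was 0.32, beside 0.05 over all genes, with 6 above 0 and 4 below. Within slide 1 the median of the 10 was -0.05, with 5 above 0 and 5 below. With array quality weights in the fit, 4 of the 10 were called higher (Il1rl1, Il4, Il13 and Il13ra2), where 19.2% of all genes were called higher and 32.2% in either direction. The 3 WT arrays and that of KO 1 were on slide 1 and those of KO 2 and KO 7 on slide 2, and with slide as a block none of the 10 passed (smallest adjusted p = 0.80) and 0.71% of all genes did.

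**Figure D1:**
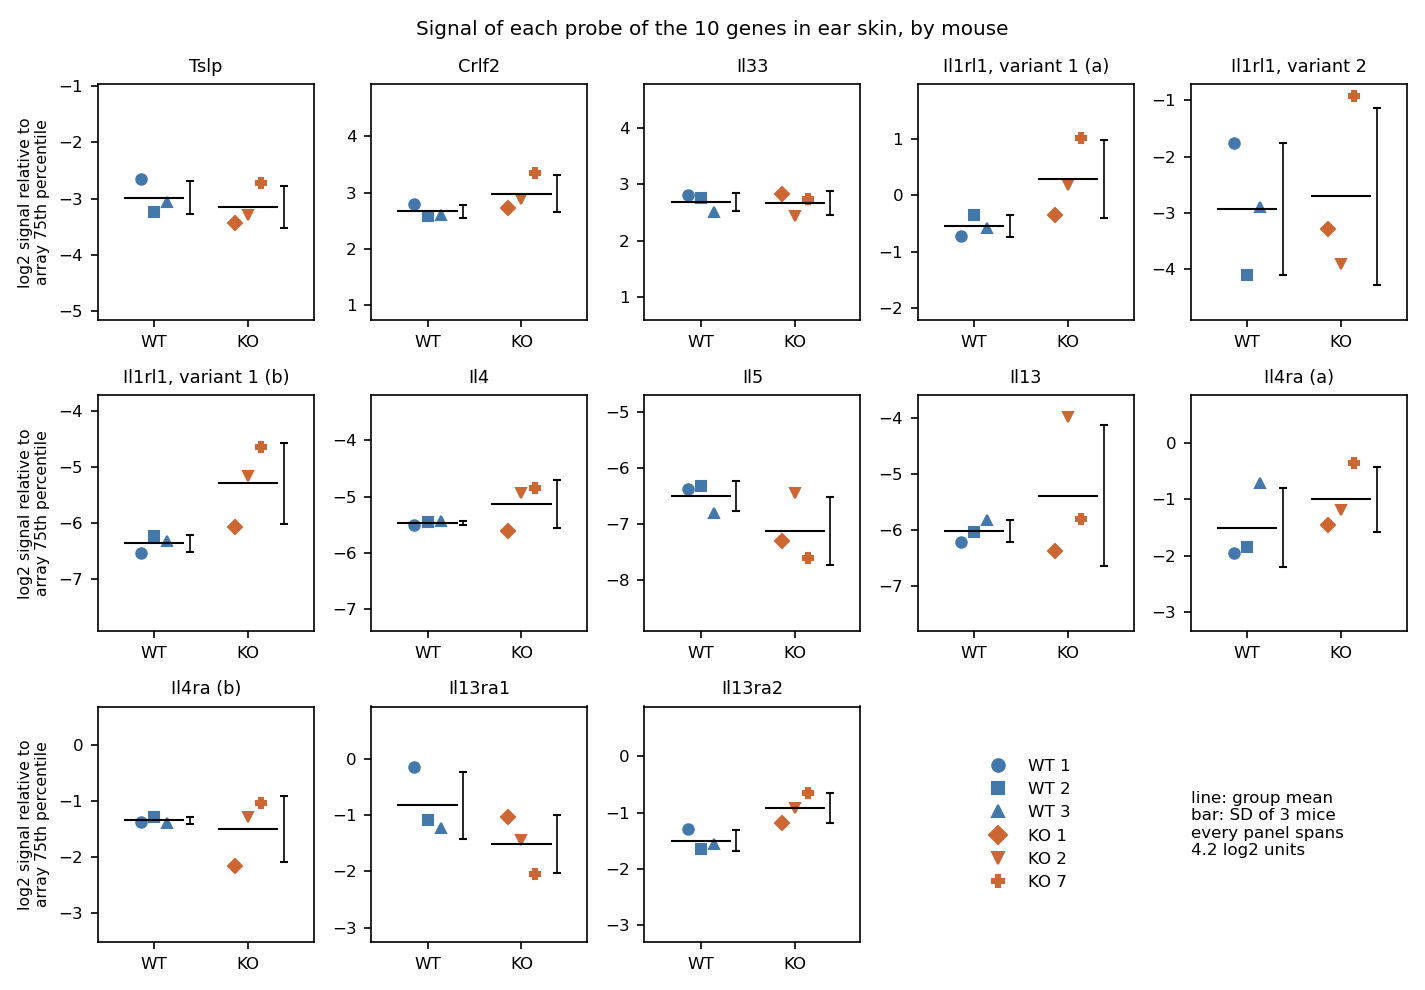
Log2 signal minus the array's 75th percentile (vertical axis) of each of the 13 probes in the 3 WT and 3 KO mice, with the group mean (line) and SD (bar). The groups overlap for most probes, while both variant 1 probes of Il1rl1 and the Il13ra2 probe have all KO mice above all WT mice.

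Tslp, the epithelial cytokine gene, was measured well above background in every mouse and showed no difference beyond the spread between mice. Values were -2.65, -3.23 and -3.07 for WT 1, 2 and 3, and -3.44, -3.29 and -2.73 for KO 1, 2 and 7. WT 1 was highest and KO 1 lowest, and the groups overlapped. KO over WT was 0.889-fold, with a 95% confidence interval from 0.595 to 1.33 (adjusted p = 0.66). A rise of more than 1.33-fold in Tslp RNA thus lay outside the interval. The log2 difference of -0.17 became -0.38 without KO 7, -0.0047 without WT 1 and -0.46 with slide as a block. In whole skin, fewer cells of a type and less RNA per cell cannot be told apart, here and for the other genes. Before scaling the WT arrays read 1058, 562 and 657 for Tslp and the KO arrays 407, 425 and 574, and every KO array was dimmer as a whole than every WT array, with a 75th percentile of 3806 to 4416 against 5276 to 6656. The probe lies on chromosome 18 of mm9, from 32978885 to 32978944 on the plus strand.

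Il33, which encodes the nuclear alarm cytokine, had the smallest difference of the 10 genes. The signal was 2.81, 2.75 and 2.51 for WT 1, 2 and 3, and 2.83, 2.43 and 2.74 for KO 1, 2 and 7. The values of the groups interleaved, with KO 1 highest and KO 2 lowest. KO over WT was 0.983-fold (95% confidence interval 0.752 to 1.29, adjusted p = 0.93). The 1 probe (chr19:30035101-30035160 on mm9, plus strand) carries the accession of RefSeq transcript variant 1, and whether it also reads other variants was not tested. The sign of this small difference changed with normexp background (0.07) and within slide 1 (0.14).

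By the smallest root-mean-square distance between log2 values centred over the 6 arrays, among 16570 named genes, the patterns nearest to Tslp were those of Elapor2 (0.07), Nrk (0.09) and Abr (0.10). Those nearest to Il33 were Dynlt1c (0.05), Tro (0.06) and Pla2g2c (0.06). These distances describe 6 arrays only.

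Crlf2, the ligand-specific chain of the TSLP receptor, was 2.81, 2.59 and 2.61 for WT 1, 2 and 3, and 2.72, 2.88 and 3.35 for KO 1, 2 and 7. KO 7 stood highest, and KO 1 lay inside the WT range. The difference of 0.31 ± 0.19 (SE) had 95% bounds of -0.14 and 0.77 (adjusted p = 0.32). Leaving out KO 7 gave 0.13. The Crlf2 probe is at chr5:109983732-109983791 of mm9 on the minus strand.

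Il1rl1, the ST2 gene, was read by 3 probes, of which 2 belong to RefSeq transcript variant 1 and 1 to variant 2. Variant 1 encodes the membrane receptor that transmits the IL-33 signal, and variant 2 a secreted form that binds IL-33 without signalling. The first 30 bases of the 3 probes of 60 are shown because the comparison turns on which transcript each reads, 5′ to 3′, with no base singled out.
Il1rl1 variant 1, probe a (chr1:40522187-40522246, mm9, plus strand): gccattgactccttgtgtgttttcttcatg
Il1rl1 variant 1, probe b (chr1:40520014-40520073, mm9, plus strand): ccttacccaaattgccattacagtcgagca
Il1rl1 variant 2 (chr1:40504769-40504828, mm9, plus strand): ctctgtaacaggatcttttgtctagatttc

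Probe a of variant 1, the brightest and thus the one that stands for the gene in the test, gave -0.72, -0.34 and -0.57 for WT 1, 2 and 3, and -0.34, 0.19 and 1.03 for KO 1, 2 and 7. KO 1 was level with WT 2, with -0.342 against -0.343, and KO 2 and KO 7 stood above. The difference was 0.84 ± 0.34 (SE), or 1.79-fold with an interval from 1.02 to 3.14 (unadjusted p = 0.045, adjusted p = 0.18 in the limma fit). Probe b gave -6.54, -6.23 and -6.32 for WT 1, 2 and 3, and -6.08, -5.17 and -4.64 for KO 1, 2 and 7. It had the same order among the KO mice, and its difference was 1.07 ± 0.35 (adjusted p = 0.13 over all probes). Neither variant 1 probe passed, although each had all KO mice above all WT mice, and within slide 1 they differed by 0.20 and 0.29. Before scaling the KO 1 array read below every WT array on both, 3483 against 3707 to 4158 for probe a. For the dim probe b it read 65.3 against 68.9 to 71.4, so that the place of KO 1 above WT came with the scaling. Without KO 7 the difference of probe a was 0.47.

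The variant 2 probe behaved otherwise from mouse to mouse. It gave -1.77, -4.11 and -2.90 for WT 1, 2 and 3, and -3.29, -3.91 and -0.92 for KO 1, 2 and 7. WT 1 and KO 7 were high, WT 2 and KO 2 low, and the SD of 1.17 in WT and 1.58 in KO exceeded that of any other probe of the 10 genes. The difference was 0.22 ± 0.88 (adjusted p = 0.88 over all probes). The log2 signal of variant 1 probe a minus that of the variant 2 probe within each array was 1.05, 3.77 and 2.33 for the WT mice and 2.95, 4.09 and 1.95 for the KO mice. Probes differ in response, so that only the change of this difference between mice can be read. The group means differed by 0.61, and the groups overlapped (exact permutation test, two-sided, p = 0.60, where 0.10 is the smallest p that 3 against 3 allows).

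RefSeq lists 2 start sites of Il1rl1 on GRCm38.p6, and the 250 bases before each are shown because the probes of the transcript variants ranked the mice differently. The table does not say which variant starts where. Capitals mark TGATAA, on either strand, a sequence that GATA factors bind.
Il1rl1, first start (chr1:40429320-40429569, plus strand): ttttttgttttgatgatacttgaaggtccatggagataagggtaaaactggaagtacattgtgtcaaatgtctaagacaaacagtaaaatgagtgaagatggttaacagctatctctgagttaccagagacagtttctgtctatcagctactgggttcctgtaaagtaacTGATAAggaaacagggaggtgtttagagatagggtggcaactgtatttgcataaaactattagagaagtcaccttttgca
Il1rl1, second start (chr1:40439379-40439628, plus strand): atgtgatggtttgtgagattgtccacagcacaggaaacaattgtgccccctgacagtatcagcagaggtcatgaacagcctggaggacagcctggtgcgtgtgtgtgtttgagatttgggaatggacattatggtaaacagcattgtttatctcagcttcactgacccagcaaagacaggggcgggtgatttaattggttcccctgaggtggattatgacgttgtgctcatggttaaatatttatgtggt
The first held 1 match, 80 bases before the start, and the second none, where 7.94% of 32851 promoter windows of this length held at least 1. Only these letters were searched for, so that other forms of a GATA site were not counted in either window. Neither held a STAT6 type of motif (TTC and GAA with 4 bases of any kind between, in 5.85% of the windows), nor the AP-1 motif TGACTCA. The STAT6 type was found in other promoters searched, 36 bases before a start of Il33 and 167 bases before a start of Il4. A match is a description of letters and not of binding.

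**Figure D2:**
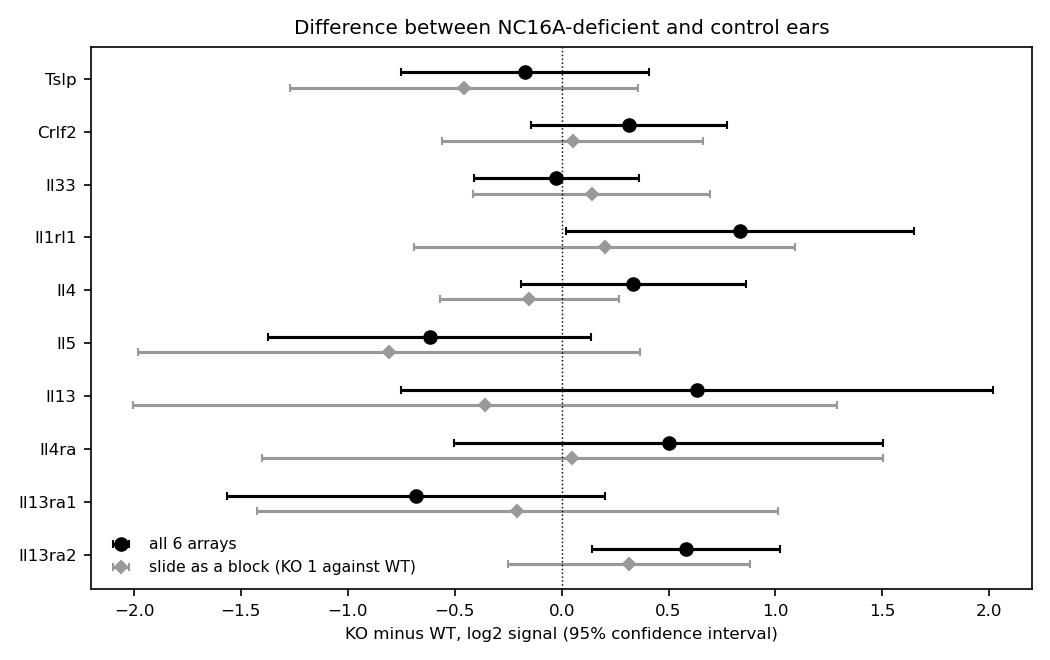
KO minus WT difference in log2 signal with its 95% confidence interval for each gene (horizontal axis), from all 6 arrays (black) and with slide as a block (grey). Only the black intervals of Il1rl1 and Il13ra2 lie wholly above 0, and every grey interval spans 0.

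The cytokine genes Il4, Il5 and Il13, which lie together on chromosome 11, were dim in these ears, and none passed. Their probes span chr11:53426076-53426135 (Il4, minus strand), chr11:53444828-53444887 (Il13, minus strand) and chr11:53538468-53538527 (Il5, plus strand) of mm9. The probes of Il4 and Il5 have an open reading frame throughout, and that of Il13 has none. The sequences are shown because such dim signals rest on these probes alone. They are whole for Il4 and cover the first 30 bases for Il13 and Il5, with no base singled out.
Il4: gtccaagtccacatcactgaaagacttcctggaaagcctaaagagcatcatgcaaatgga
Il13: tcactgaacaaacttttcattgactgtcaa
Il5: cccccagtttactccaggaaaaacagatgt

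Il4, the gene of the cytokine that drives T helper 2 differentiation, was read by 10 spots of 1 probe on each array. Its signal was -5.51, -5.45 and -5.44 for WT 1, 2 and 3, and -5.62, -4.93 and -4.85 for KO 1, 2 and 7. The WT mice lay close together (SD 0.035), KO 1 was below them and KO 2 and KO 7, both on slide 2, above. KO minus WT came to 0.33 ± 0.22 (adjusted p = 0.35), with the opposite sign within slide 1 (-0.15).

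Il13, whose product acts on keratinocytes and fibroblasts, was high in 1 mouse. Its signal was -6.21, -6.04 and -5.82 for WT 1, 2 and 3, and -6.38, -3.98 and -5.80 for KO 1, 2 and 7. Without scaling the KO 2 array read 264 and the other 5 arrays 53 to 97.3. The difference of 0.63 ± 0.58 (adjusted p = 0.49) turned to -0.07 without KO 2 and to -0.36 within slide 1. Il5, the eosinophil growth factor gene, was -6.38, -6.32 and -6.81 for WT 1, 2 and 3, and -7.31, -6.44 and -7.61 for KO 1, 2 and 7. It was well above background on all 3 WT arrays and on 1 of 3 KO arrays, KO 2. The difference was -0.62 ± 0.32 (adjusted p = 0.25), with the values of KO 1 and KO 7 at background and thus in no measured order. It was -0.024 with normexp background, -0.13 with array weights and -0.37 without KO 7, and reached -0.96 without KO 2.

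Il4ra, the chain shared by the IL-4 and IL-13 receptors, was read by 2 probes that disagreed. The probe that stands for the gene (chr7:132722922-132722981, mm9, plus strand) gave -1.96, -1.84 and -0.70 for WT 1, 2 and 3, and -1.45, -1.20 and -0.35 for KO 1, 2 and 7. WT 3 lay above KO 1 and KO 2 there. The difference was 0.50 ± 0.42 (adjusted p = 0.46), and it ranged from 0.18 without KO 7 to 0.90 without WT 3. The other probe (chr7:132712550-132712609) gave -1.37, -1.28 and -1.38 for WT 1, 2 and 3, and -2.15, -1.28 and -1.03 for KO 1, 2 and 7. Its difference was -0.15 ± 0.29 (adjusted p = 0.76 over all probes), with KO 1 the lowest mouse. No direction can be given for Il4ra from these probes.

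Il13ra1, which pairs with the IL-4 receptor alpha chain into the signalling receptor for IL-13, and Il13ra2, which binds IL-13 with high affinity and is known mainly as a decoy, had differences of opposite sign, and neither passed. Il13ra1 (chrX:33710154-33710213, mm9, plus strand) was -0.14, -1.09 and -1.23 for WT 1, 2 and 3, and -1.03, -1.44 and -2.05 for KO 1, 2 and 7. WT 1 was the highest and KO 7 the lowest, and KO 1 lay inside the WT range. The difference was -0.68 ± 0.37 (95% confidence interval -1.57 to 0.20, adjusted p = 0.27), and -0.34 without WT 1.

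Il13ra2 (chrX:143818095-143818154, mm9, minus strand) was -1.30, -1.66 and -1.55 for WT 1, 2 and 3, and -1.19, -0.92 and -0.65 for KO 1, 2 and 7. Every KO mouse was above every WT mouse, KO 1 by the smallest margin. Before scaling the WT arrays read 2709, 1674 and 1879 and the KO arrays 1937, 2205 and 2418. WT 1 thus read above every KO array, so that the separation of the groups came with the scaling. The difference of 0.58 ± 0.18, or 1.5-fold with an interval from 1.10 to 2.03, had the smallest p of the 10 genes (unadjusted p = 0.017, adjusted p = 0.12 in the limma fit). By p it stood at rank 3213 of the 23676 genes, and within slide 1 it was 0.31. Its 250 bases before the start on GRCm38.p6 are shown for this gene of lowest p, with TGACTCA, a motif of AP-1, in capitals.
Il13ra2 (chrX:147429193-147429442, minus strand): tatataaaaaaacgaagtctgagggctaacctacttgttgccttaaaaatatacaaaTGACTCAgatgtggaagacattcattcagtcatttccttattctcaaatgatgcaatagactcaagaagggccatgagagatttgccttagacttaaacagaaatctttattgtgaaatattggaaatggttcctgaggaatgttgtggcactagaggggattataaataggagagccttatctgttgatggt
It held 1 TGACTCA, 193 bases before the start, as 4.46% of the windows did on either strand, and neither TGATAA nor the STAT6 type of motif.

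The mice of the KO group did not depart from WT alike. KO 7 was the highest of the 6 mice for Crlf2, Il1rl1, Il4, Il4ra and Il13ra2 and the lowest for Il13ra1. Its Il5 signal was the lowest too, but at background, as was that of KO 1. Over all genes KO 7 was the highest mouse for 36.1% and the lowest for 24.3%, so that it was often extreme. KO 1, the KO mouse whose array shared a slide with the WT arrays, was lowest for Tslp, Il4 and Il13 and highest for Il33, where over all genes it was lowest for 9.45% and highest for 6.34%. Against the WT mean, Il1rl1 stood 0.20 higher in KO 1, 0.73 higher in KO 2 and 1.57 higher in KO 7. Slide and mouse cannot be told apart for KO 2 and KO 7.

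**Figure D3:**
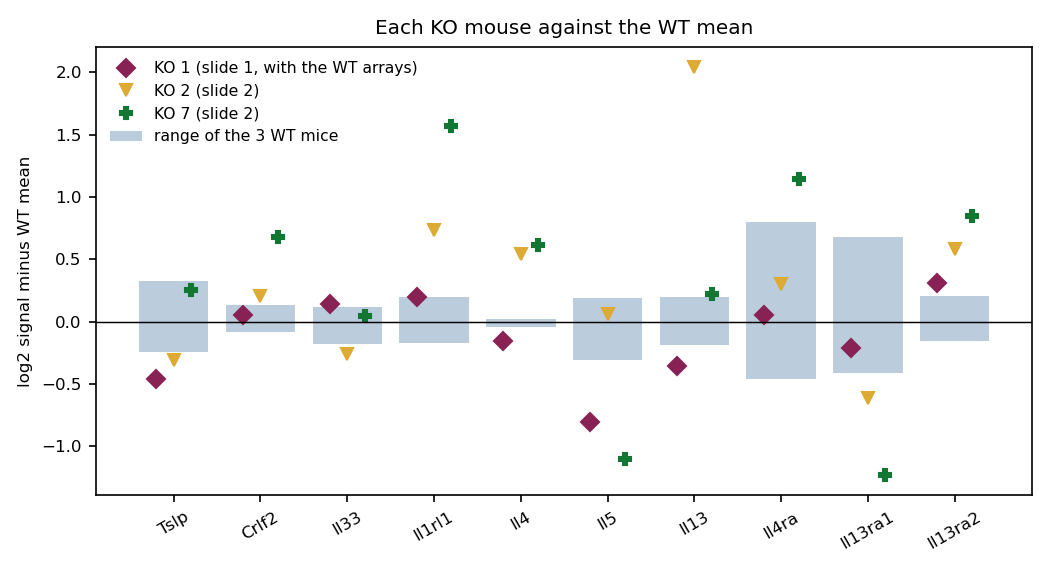
Log2 signal of each KO mouse minus the WT mean for each gene, with the range of the 3 WT mice as a shaded band. KO 7 is the highest KO mouse and above the WT range for Crlf2, Il1rl1, Il4, Il4ra and Il13ra2, KO 2 is 2.04 above the WT mean for Il13, and KO 1 stays within 0.46 of the WT mean except for Il5.

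Around these genes, the receptor partners and signal transducers of the pathway showed no called change. Of 20 measured genes (the shared receptor chains, the JAK kinases, STAT factors and the IL-1 receptor type adaptors), 0 rose and 0 fell, with 14 differences above 0 and a median of 0.34, which was 0.03 within slide 1. The 2 with the smallest p were Stat3, a transcription factor of IL-6 type cytokines (0.81 ± 0.21, adjusted p = 0.092, with 0.21 from its other probe), and Sigirr, an inhibitory member of the IL-1 receptor family (0.46 ± 0.16, adjusted p = 0.14). Alarm signals other than Tslp and Il33 and the genes that trigger them also gave 0 of 13. There Il1b, the gene of an inflammatory cytokine, differed by 4.05 ± 0.92 (adjusted p = 0.074) and Tnf by 1.11 ± 0.34 (adjusted p = 0.12), while the list median was 0.0036. Il25, the alarm cytokine related to IL-17, was well above background on 2 WT arrays and no KO array and was not tested.

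Of 19 measured genes known to respond to IL-4 and IL-13, 1 rose, 0 fell and 18 did not pass, with a median of 0.13, or -0.26 within slide 1. The one that rose was Slc26a4, which encodes the anion exchanger pendrin (3.31 ± 0.56, adjusted p = 0.039, well above background on 2 of 3 WT arrays). The call was lost when KO 2 or any 1 WT mouse was left out, with an adjusted p of up to 0.14, and with slide as a block (adjusted p = 0.40). It was also lost with quantile normalization, with no filter, with a filter on all 6 arrays and with replicate number as a block. Ccl11, the eosinophil chemokine eotaxin, was -0.69, 0.04 and -0.06 for WT 1, 2 and 3 and -1.17, -1.66 and -1.81 for KO 1, 2 and 7. All KO mice were below all WT mice, and its difference of -1.31 ± 0.26 did not pass (adjusted p = 0.056). Of 11 genes of other cytokines, growth factors and receptors, not all of them type 2, 1 rose, Areg, the gene of the growth factor amphiregulin (2.55 ± 0.28, adjusted p = 0.0088). With slide as a block its difference was 2.36 and did not pass (adjusted p = 0.13). The other named gene of that list, the IL-9 receptor gene Il9r, differed by 0.81 ± 0.26 (adjusted p = 0.12). Il31, the itch cytokine gene, and Il9 were well above background on 0 of 6 arrays.

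**Figure D4:**
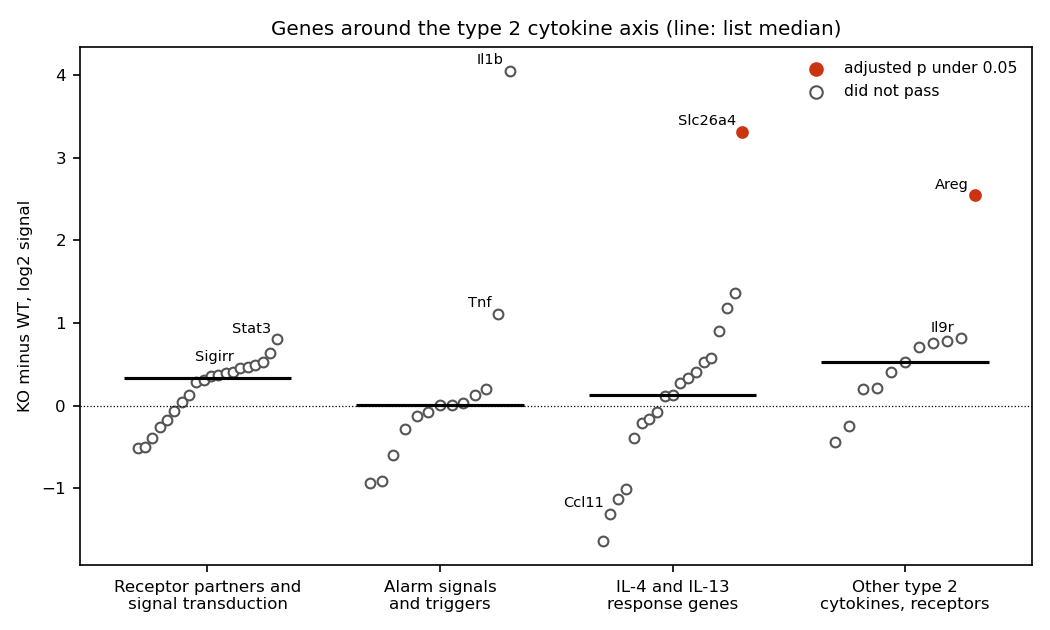
KO minus WT difference in log2 signal (vertical axis) of the genes in 4 lists around the type 2 cytokines, with the list median as a line. Slc26a4 and Areg are filled because they passed, and all other genes are open.

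Cells that carry these receptors or make these cytokines were read through their markers. Of 12 markers of T helper 2 and type 2 innate lymphoid cells, 0 passed, led by Klrg1 (1.15 ± 0.21, adjusted p = 0.0502) and Il2ra (1.22 ± 0.30, adjusted p = 0.085). In that list 10 differences were above 0 and 2 below, and the median was 0.26, or 0.01 within slide 1. Of 11 mast cell and basophil markers 0 passed, with Fcer1a, the IgE receptor chain, at 1.23 ± 0.34 (adjusted p = 0.10) and the mast cell receptor gene Mrgprb2 at -0.79 ± 0.24 (adjusted p = 0.11). The summed linear level of the mast cell and basophil list was 22.6 to 28.8 in WT and 24.5 in KO 1, 38.6 in KO 2 and 61.6 in KO 7, each in units of the array's 75th percentile. It was thus high in KO 2 and KO 7, as Il1rl1 variant 1 was, and its part in that difference was not tested. Most of this sum came from 1 gene, the mast cell protease gene Mcpt4, named after its values were seen (0.69 ± 0.35, adjusted p = 0.24, and -0.0058 within slide 1). The mast cell protease genes Cpa3 (0.0058 ± 0.19) and Cma1 (-0.16 ± 0.20), also named after their values were seen, did not pass, and the list median was 0.31, or -0.23 within slide 1. The basophil gene Mcpt8 was well above background on no WT array and on 2 KO arrays. Of 7 eosinophil markers 0 passed, with Siglecf at -0.70 ± 0.28 (adjusted p = 0.18) and Ear6 at 0.68 ± 0.20 (adjusted p = 0.11). Epx and Prg3, genes of eosinophil granules, were not tested. Epx was well above background on 2 WT arrays and Prg3 on 1 WT array, and neither was on any KO array.

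Of the markers of the labelled tissue, 10 of 10 epidermal keratinocyte genes were measured. Their summed level was 358 to 427 in WT and 482 to 635 in KO, and 0 of 10 passed, with Dsg3 at 1.10 ± 0.21 (adjusted p = 0.051) and Krt1 at 1.16 ± 0.29 (adjusted p = 0.087). The median of the keratinocyte list was 0.47, or 0.22 within slide 1, with 9 differences above 0 and 1 below. Of 10 fibroblast and endothelial markers 0 passed (smallest p for Col1a2, 0.67 ± 0.19, and Col1a1, 0.54 ± 0.19, adjusted p = 0.11 and 0.14), and of 10 dendritic cell, Langerhans cell and macrophage markers 0 passed (Cd68, -1.05 ± 0.29, and Cd207, -0.39 ± 0.20, adjusted p = 0.10 and 0.24). In this last list 5 differences were above 0 and 5 below, with a median of 0.02. Its summed level was 92.7 to 116 in WT and 93.3 to 138 in KO, so that the groups overlapped. Hair follicle and neutrophil lists held called genes. Of 9 hair follicle markers 9 rose and their summed level was 5.16 to 10.3 in WT and 64.0 to 111 in KO, with Krt82 (3.21 ± 0.20), Krt35 (3.1 ± 0.22), Krt73 (3.11 ± 0.22) and Padi3 (4.31 ± 0.35) in front. With slide as a block 6 of the 9 passed, without Krt27 (adjusted p = 0.058), Krt71 (0.061) and Lef1 (0.44), and the Lef1 call was also lost when any mouse but KO 1 was left out (adjusted p up to 0.16). Of 9 neutrophil markers 3 rose, S100a9 (4.69 ± 0.30), S100a8 (4.72 ± 0.35) and Cxcr2 (2.05 ± 0.26), and 6 did not pass. The 6 were Mpo (1.85 ± 0.48, adjusted p = 0.093), Csf3r (0.73 ± 0.23, 0.12), Ly6g (-0.35 ± 0.15, 0.19), Camp (0.45 ± 0.34, 0.40), Ltf (0.43 ± 0.36, 0.45) and Elane (0.17 ± 0.21, 0.63). For Ly6g all KO mice were below all WT mice. Within slide 1 Ly6g, Camp and Elane were below 0, and the list median was 0.55. Leaving out KO 2, WT 2 or WT 3 ended the Cxcr2 call, with an adjusted p of up to 0.076, as did slide as a block (adjusted p = 0.0999). The summed level of 12 adipocyte, muscle and cartilage markers, of which 0 passed (Comp -0.62 ± 0.14, Adipoq -1.31 ± 0.38), was 111 to 192 in WT and 70.1 to 116 in KO, so that the groups overlapped. The part of these lists in the values of the 10 genes was not tested.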

How the data were processed

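Each of 6 mice gave 1 ear skin RNA sample and 1 one-colour (Cy3) Agilent array, with groups and replicate numbers from the sample titles. The deposited scanner files hold the processed signal as an intensity, background-subtracted but not normalized across arrays, per the file headers (Agilent Feature Extraction 10.7.3.1, probe positions on mm9). Flags for outlier, saturated and above-background spots were deposited as other values of 0 or 1 per the file headers, and no spot was saturated. The deposited series matrix intensity values were identical to the processed signals.

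Of 43020 non-control spots per array, 170 to 249 flagged as outliers were left out and spots of a probe averaged. Values are log2 signals minus the array's 75th percentile, on the log2 scale computed here from the deposited intensities. A probe was kept if well above background on 3 or more of the 6 arrays (29602 probes), and the brightest kept probe stood for each of 23676 genes. The two-sided test of KO against WT used the limma package (version 3.58.1, in R 4.3.3; lmFit, then eBayes). Its p-values were adjusted by Benjamini-Hochberg over all genes, and the call threshold was 0.05. Gene names came from RefSeq (GRCm38.p6), which also gave the promoter sequences. Python 3.11.15 and pandas 2.3.3 made the tables.

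The 10 genes and the 13 lists were chosen with earlier results of these data known. The text names the 10 genes, the 3 nearest patterns to Tslp and Il33, and in each list up to 4 genes of smallest p that passed or, with fewer than 2, the 2 of smallest p. Other genes of a list (Il25, Il31, Il9, Mcpt8, Epx, Prg3, Mcpt4, Cpa3, Cma1, Krt27, Krt71, Lef1, Mpo, Csf3r, Ly6g, Camp, Ltf and Elane) were named after their values were seen. The mice were labelled as separate, with no litter given. The number of arrays limits the precision. Alternatives covered background, scaling, filters, probe summary, blocks, weights, thresholds and each mouse left out. The motifs named above and an NF-kB motif were searched for in the promoter windows of 9 of the 10 genes. The NF-kB motif had no match. Probe position within exons or UTRs was not analysed here.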

Additional observations from a re-analysis of the deposited data

How the results depend on the processing

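Under the alternatives with a test, the 10 genes gave 0 calls in either direction except with array weights, where 4 were called higher. Differences of the opposite sign were found for Il33 with normexp background (0.0704), with slide as a block (0.14), within slide 1 (0.14) and without WT 1, WT 2 or KO 2 (over all fits without 1 mouse from -0.11 to 0.0923), for Il4 with slide as a block and within slide 1 (-0.15), and for Il13 in the same fits (-0.36) and without KO 2 (-0.0691, over all such fits up to 1.13). With 1 KO array on slide 1, the difference within slide 1 equals that with slide as a block. The Il1rl1 variant 2 probe reversed within slide 1 (-0.37). The cause of these changes was not tested. The median difference over all genes was 0.05, 0.12 with no filter, 0.11 with normexp and -0.08 with the array median, so that scaling moved it by over 0.1.

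The count of all genes called higher, 469, was 860 with normexp, 269 with no filter, 158 with slide as a block, 4546 with array weights and 1570 at an adjusted p under 0.10, and 183 to 719 without 1 mouse. The count called lower, 92, was 149 with the array median, 27 with no filter, 10 with slide as a block, 3076 with array weights and 471 at an adjusted p under 0.10, and 19 to 254 without 1 mouse. Without KO 1, all KO arrays were on slide 2. The mice share numbers 1 and 2 only, and with replicate number as a block 0 genes were called in either direction by limma, with 4517 at an unadjusted p under 0.05. With 2 shared numbers and no label that ties them, the pairing was not established. In the gene lists, array weights raised the counts called higher from 0 to 6 for receptor partners, from 1 to 6 for IL-4 and IL-13 response genes and from 0 to 5 for T helper 2 and innate lymphoid markers. The last count was 3 without KO 1 and 2 with the mean of a gene's probes. For alarm signals and their triggers the count called higher, 0, was 1 with normexp and at an adjusted p under 0.10. It was also 1 with an intensity trend in the limma fit, without KO 1 and without KO 7, and 2 with array weights. With the replicate block the hair follicle count went from 9 to 0 and the neutrophil count from 3 to 0, and with slide as a block to 6 and 2.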
